A study of Mus musculus with 3 samples.

Results

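Basal cells are the keratin 5-positive stem cells that lie on the basement membrane of the airway epithelium. Here they were the droplet barcodes with at least 500 detected genes and at most 15% mitochondrial UMIs in which at least 2 of the 3 genes Krt5, Krt14 and Trp63 had a UMI, with no UMI of the leukocyte gene Ptprc and at most 1 UMI of the ciliated cell gene Foxj1. A UMI is a unique molecular identifier, the tag by which 1 captured transcript is counted once. The rule found 98 basal cells among the 10457 barcodes that passed the gene and mitochondrial limits in 3 libraries, with 93 from Club-Tracer, 4 from BASC-Tracer and 1 from AT2-Tracer. Levels of Krt5, Krt14 and Trp63 in these cells were therefore fixed by the choice and are given as a description.

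Krt5 and Krt14 pair into the keratin filaments that anchor a basal cell to its neighbours and to the matrix below, and Trp63 encodes p63, the transcription factor that maintains the basal state of stratified and pseudostratified epithelia. In the mouse, basal cells line the trachea and main bronchi and renew club and ciliated cells. They are rare or absent in the small airways and alveoli of an uninjured lung, where keratin 5-positive cells are known to appear after severe injury. Club cells are the secretory cells of the small airways, marked by Scgb1a1. Transitional cells are the Krt8-high, Cldn4-high epithelial state described in injured alveoli between progenitor cells and flat alveolar type 1 (AT1) cells.

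All 3 libraries came from whole lungs of mice of 1 genotype, Scgb1a1-CreER;Sftpc-DreER;R26-TLR, taken 4 weeks after bleomycin, a drug that injures the alveolar epithelium. Scgb1a1-CreER and Sftpc-DreER are inducible recombinases driven by the promoters of a club cell gene and of the surfactant gene of alveolar type 2 (AT2) cells, and R26-TLR is a dual reporter in the Rosa26 locus, so all groups carried the same alleles and the same injury. Club-Tracer cells had been sorted for tdTomato, BASC-Tracer cells for both colours and AT2-Tracer cells for ZsGreen, and the label of a cell depends on whether Scgb1a1 or Sftpc was active when the recombinases were induced. An uninjured library was not analysed here, and the labels used here do not say how many mice each library held.

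Each lineage had 1 library. Cells of 1 library are not replicates, so no test was made between groups of cells, and every interval below covers counting error only. Club-Tracer held 62570890 UMIs in 5304 barcodes, of which 3196 passed the gene and mitochondrial limits; BASC-Tracer held 29013077 UMIs in 2439 barcodes (1402 passed) and AT2-Tracer 72256580 UMIs in 8884 barcodes (5859 passed). Pairs of libraries shared 73 to 122 barcodes, of which 6 to 23 passed the limits in both. Club-Tracer and AT2-Tracer shared 1 barcode that was a basal cell in either library, and so did BASC-Tracer and AT2-Tracer. In both libraries of a pair, 0 barcodes were basal cells. The basal cells of the Club-Tracer library had a median of 12000 UMIs and 3499 genes, against 15533 UMIs and 3664 genes in its other barcodes.

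Of the 6 basal marker genes, Krt5 and Aqp3 are shown with the 250 bases before their RefSeq transcription start in build GRCm38.p6, because the first helped to choose the cells and the second was not used and marked nearly all of them. Both lie on the reverse strand and are written 5′ to 3′ in the direction of transcription. The Krt5 window, chr15:101712906-101713155, holds 1 half-site of the p53 family, the family to which p63 belongs, 95 bases before the start (capitals). The Aqp3 window, chr4:41098184-41098433, holds a TATA box, TATAAA, 29 bases before the start (capitals).
Krt5: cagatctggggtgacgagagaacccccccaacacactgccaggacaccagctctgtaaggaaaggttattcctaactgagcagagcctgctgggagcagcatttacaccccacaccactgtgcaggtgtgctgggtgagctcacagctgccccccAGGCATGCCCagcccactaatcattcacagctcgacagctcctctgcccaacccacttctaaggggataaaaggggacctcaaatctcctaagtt
Aqp3: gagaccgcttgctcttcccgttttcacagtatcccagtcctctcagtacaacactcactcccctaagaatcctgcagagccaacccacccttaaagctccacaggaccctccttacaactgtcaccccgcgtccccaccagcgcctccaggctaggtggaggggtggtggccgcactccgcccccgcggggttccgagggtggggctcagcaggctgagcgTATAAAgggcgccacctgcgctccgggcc
Among 32851 mouse promoter windows of the same length, 7.13% held a p53-family half-site on either strand and 7.59% held TATAAA on the forward strand. These are matches of letters and say nothing of binding or use.

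Krt5 had 0 to 125 UMIs per basal cell of the Club-Tracer library with a median of 9, and was seen in 89 of 93 cells. Krt14 had 0 to 174 UMIs with a median of 4 and was seen in 58 cells, and Trp63 had 0 to 13 UMIs with a median of 2 and was seen in 74 cells. Krt5 was thus the most regular of the 3 genes, whereas Krt14 was at 0 in 35 cells, at 1 to 10 UMIs in 25 and above 10 UMIs in 33, with an upper quartile of 23 UMIs. All 3 genes were seen in 35 cells, Krt5 with Trp63 in 35, Krt5 with Krt14 in 19 and Krt14 with Trp63 in 4. The basal cells contributed 2.35% of the UMIs of the filtered Club-Tracer barcodes but 77.0% of the Krt5 UMIs, 81.0% of the Krt14 UMIs and 44.9% of the Trp63 UMIs.

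**Figure D1:**
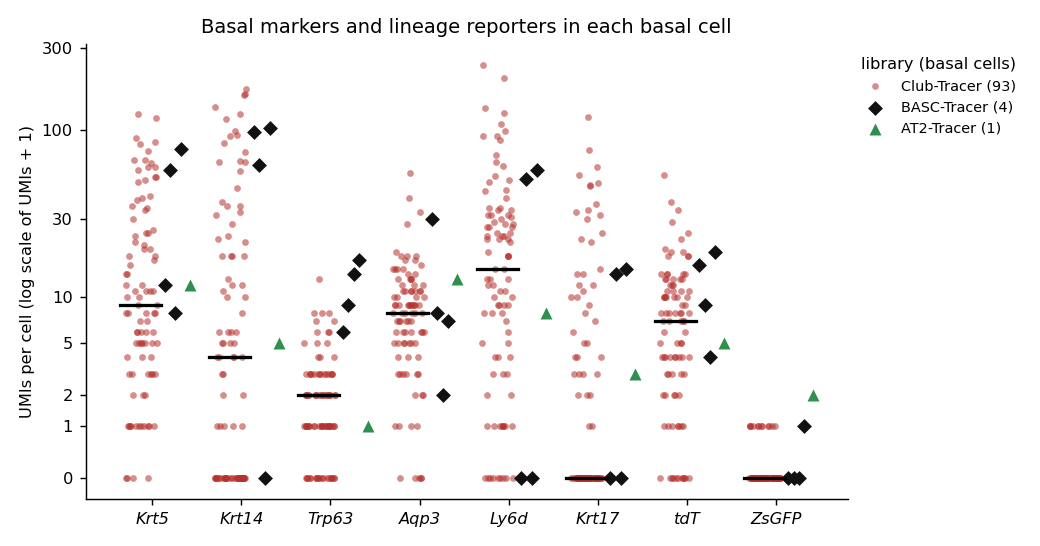
UMIs per cell (log scale of UMIs + 1) of the 6 basal marker genes and of the reporter transcripts tdT and ZsGFP, 1 point per basal cell; colours and shapes mark the library and black bars the median of the 93 Club-Tracer cells. Krt5, Aqp3, Ly6d and tdT form continuous clouds with medians of 9, 8, 15 and 7 UMIs, while Krt14 is at 0 in 35 and Krt17 in 52 cells, with the others spread from 1 UMI upwards, and ZsGFP does not exceed 1 UMI in any Club-Tracer basal cell.

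The 5 cells just inside the rule, with 2 of the 3 genes at 1 UMI each, all had Aqp3, at a median of 9 UMIs. Just outside lay 175 Club-Tracer barcodes with 1 of the 3 genes, of which 119 had Trp63 alone, 43 Krt5 alone and 13 Krt14 alone. In these the median of Aqp3 was 2 UMIs, and Aqp3 was at 456 CPM (the UMIs of a gene scaled to the summed UMIs of a class) in barcodes with Krt5 alone, 253 CPM with Trp63 alone and 60.7 CPM with Krt14 alone. Another 7 barcodes with at least 2 of the genes were left out by Foxj1, and their median of 37568 UMIs was above that of the basal cells.

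The label was checked with the 3 marker genes that the rule did not use. Aqp3, the water and glycerol channel of basal cells, had 0 to 56 UMIs per cell with a median of 8 and was seen in 88 of 93 cells (94.6%). Ly6d, a small GPI-anchored surface protein, had 0 to 240 UMIs with a median of 15 and was seen in 84 cells (90.3%). Krt17, a keratin of basal cells and of injured epithelium, had 0 to 119 UMIs with a median of 0 and was seen in 41 cells (44.1%). Aqp3 and Ly6d were thus found in nearly all basal cells and Krt17 in fewer. The basal cells held 41.8% of all Aqp3 UMIs, 67.2% of Krt17 UMIs and 21.8% of Ly6d UMIs of the library's filtered barcodes.

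Markers of other cell types and the free RNA that every droplet takes up were measured the same way. The summed level of the 6 basal markers, 3 of which chose the basal cells, was 6161 CPM in those cells. It was 9.47 CPM in 17 leukocytes of the same library (median 3953 UMIs) and 0 CPM in 4 endothelial cells (median 2089.5 UMIs). The contrast is thus partly fixed by the rule. Of the markers not in the rule, Aqp3 and Ly6d had 0 UMIs in leukocytes and Krt17 had 1. Taking 3 UMIs over the class as the limit, a gene at 0 could reach 28.4 CPM in leukocytes and 399 CPM in endothelial cells, so the endothelial 0 is a weak limit. Of 11 leukocyte genes 9 were at 0 in basal cells, their sum was 4.96 CPM, and all 4 neuroendocrine genes were at 0. Of 6 mesenchymal genes 5 were at 0, including the collagens Col1a1, Col1a2 and Col3a1, while the matrix proteoglycan Dcn had 111 UMIs in 30 cells. Of 4 myoepithelial genes 3 were at 0, with 21 of the 27 UMIs of the remaining gene, Acta2, in 1 cell. The club list summed to 39522 CPM in basal cells, against 4111 CPM in leukocytes and 19029 CPM in the 4 endothelial cells, and the AT2 list to 11235 CPM in basal cells, against 9690 CPM in leukocytes and 24085 CPM in endothelial cells. These sums are carried by few cells in part. The median per cell of the club list was 142 per 10000 UMIs in basal cells, against 59.4 in leukocytes and 203 in endothelial cells, and that of the AT2 list 60.9 in basal cells, against 26.2 in leukocytes and 38.8 in endothelial cells. By sums the AT2 level of basal cells lay between those of the 2 classes that should lack it and the club level above both, whereas by medians the AT2 level lay above both and the club level between them, so neither list was above background on both measures.

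Club and transitional cells of the Club-Tracer library passed the same limits on genes, mitochondrial UMIs, Ptprc and Foxj1 and were not basal cells by the rule. The 755 club cells had, per 10000 UMIs, at least 20 of Cyp2f2, at least 2 of Cldn10 and fewer than 50 of Sftpc. The 68 transitional cells had at least 20 of Krt8 and at least 5 of Cldn4, with fewer than 50 of Sftpc and fewer than 20 each of Cyp2f2 and Scgb3a1 and at most 1 gene of the neuroendocrine and tuft lists. These limits were set after the values had been seen, and the genes in them are a description. A gene was compared if it reached 50 CPM in either class, and differences are log2 ratios of CPM with 5 CPM added, which understates changes of low genes. A gene can pass this limit only through the class where it is high, so counts and medians of the lists below are a description.

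The scale mattered, since Scgb1a1 alone made up 36.0% of club cell UMIs and 2.40% of those of basal cells. By total UMIs, 37.1% of 3007 genes were at least 2-fold higher in basal than in club cells and 4.02% at least 2-fold lower, with a median log2 ratio of 0.81. Against transitional cells, 6.63% of 3606 genes were at least 2-fold higher and 9.54% lower by total UMIs, with a median of -0.22. Ratios below are therefore given relative to the median gene. On that scale 8.28% of genes were at least 2-fold higher in basal than in club cells and 9.28% lower, and 8.90% were higher and 6.43% lower in basal than in transitional cells. These shares are the background for the counts of genes that follow. Ribosomal protein genes made up 19.9% of UMIs in basal cells, against 13.6% in transitional and 8.96% in club cells, and median depths were 12000, 20091 and 24981 UMIs; the part of either in the results was not tested.

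Of 2947 genes compared with both classes, 137 were at least 2-fold higher in basal cells than in either and 42 lower than in either. Aqp3 stood at 623 CPM in basal cells (95% interval 582 to 665), against 9.51 CPM in transitional and 3.35 CPM in club cells, a log2 ratio of 5.66 over transitional and 5.42 over club cells. Krt17 stood at 611 CPM in basal cells, 10.9 CPM in transitional and 0.619 CPM in club cells. Ly6d was at 1887 CPM in basal cells, 544 CPM in transitional and 37.7 CPM in club cells, so it separated basal from club cells more than from transitional cells. Only 3 of 68 transitional and 24 of 755 club cells had any Aqp3 UMI, so this gene showed almost no overlap between the classes.

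Several genes outside the marker list followed the same pattern. Apoe, the lipid-carrying apolipoprotein, was at 333 CPM in basal cells (52 of 93 cells, at most 38 UMIs in any), against 2.04 CPM in transitional and 1.29 CPM in club cells. Wnt4, a secreted Wnt ligand, was at 259 CPM and was seen in 83 of 93 basal cells, against 8.15 CPM in transitional and 2.06 CPM in club cells. Fxyd3, a regulator of the sodium pump, was at 995 CPM and was seen in 92 basal cells, against 93.1 CPM in transitional and 37.2 CPM in club cells. Each of the 3 was spread over many basal cells, with no cell holding more than 8.09% of its UMIs. Lmo1, a LIM-domain transcription regulator, was at 146 CPM in basal cells, 0.679 CPM in transitional and 0.877 CPM in club cells, and Pltp, the phospholipid transfer protein, was at 139 CPM, against 0 UMIs in transitional cells (at least 68.1-fold higher, taking 3 UMIs over the class as the limit) and 0.877 CPM in club cells. The adhesion molecule Cdh3 (P-cadherin) was seen in 73 basal cells and was at 121 CPM, against 3.40 CPM in transitional and 0.619 CPM in club cells.

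**Figure D2:**
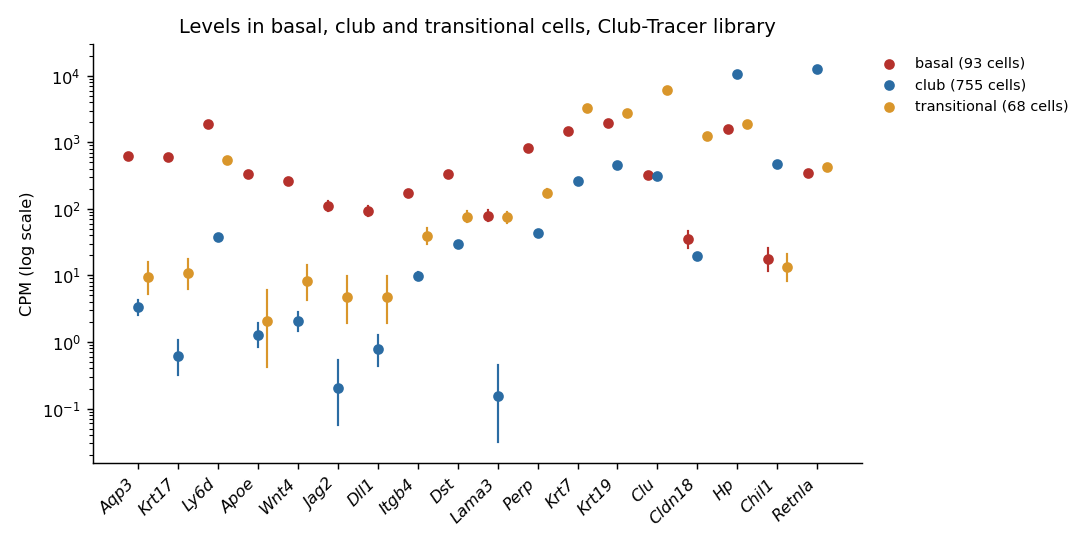
Level in CPM (log scale) of 18 genes in basal, club and transitional cells of the Club-Tracer library, with exact Poisson 95% intervals of the summed UMIs. Aqp3, Krt17, Apoe, Wnt4, Jag2 and Dll1 stand at 92.1 CPM or more in basal cells and below 11 CPM in both other classes, Clu and Cldn18 are highest in transitional cells, and Hp, Chil1 and Retnla are highest in club cells.

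Other genes known from basal cells behaved alike. Of 13 on that list, 9 reached 50 CPM, of which 8 were at least 2-fold higher in basal than in club cells and 7 at least 2-fold higher than in transitional cells (6 by total UMIs), with median log2 ratios of 3.09 and 2.36. At 50 CPM or more were 9 of the list in basal cells, 2 in club cells and 4 in transitional cells. Most were thus compared only because they were high in basal cells, so these counts and medians are a description. Dapl1 reached log2 ratios of 3.73 over club and 4.61 over transitional cells, and Dlk2, a Notch pathway inhibitor, 3.34 and 3.63. Snai2, a transcriptional repressor that acts in the epithelial-mesenchymal programme, was at 56.7 CPM against 0 UMIs in transitional cells (at least 27.8-fold higher). Ngfr, the nerve growth factor receptor used to sort tracheal basal cells, was sparse, with 42 UMIs in 26 basal cells (29.8 CPM), against 0 UMIs in transitional cells and 1 UMI in club cells. Krt15 does not follow the rest: 106 of its 131 UMIs were in 1 basal cell.

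The genes that tie basal cells to the basement membrane were described as 1 list of 13, of which 11 reached 50 CPM. These encode hemidesmosome proteins, which link keratin to the matrix, and chains of the laminins, to which they bind. At 50 CPM or more were 11 of the list in basal cells, 2 in club cells and 10 in transitional cells. Most were thus compared with club cells only because they were high in basal cells, so the count over club cells is a description. Over club cells 10 of the 11 were at least 2-fold higher (all 11 by total UMIs), with a median log2 ratio of 1.99, and over transitional cells 3 of 11, with a median of 0.20. The 3 were Itga6 and Itgb4, the 2 chains of the laminin receptor, and Dst, which encodes the plakin BPAG1. Itgb4 was at 172 CPM in basal cells (151 to 195) and was seen in 79 of 93, against 39.4 CPM in transitional and 9.85 CPM in club cells. Dst was at 337 CPM in basal cells, 76.1 CPM in transitional and 29.4 CPM in club cells. The laminin chains Lama3 and Lamb3 were instead at like levels in transitional cells: Lama3 was at 78.6 CPM in basal and 74.7 CPM in transitional cells, and Lamb3 at 182 CPM in basal and 177 CPM in transitional cells. In club cells Lama3 was at 0.155 CPM and Lamb3 at 20.8 CPM. Col17a1, the hemidesmosome collagen, was below the minimum, with 38.3 CPM in basal cells and 0 UMIs in transitional cells. Of 5 desmosome genes, which hold cells to each other, 3 were at least 2-fold higher in basal than in club cells (5 by total UMIs), and 1 of 6 was higher and 1 lower than in transitional cells. At 50 CPM or more were 5 desmosome genes in basal cells, 1 in club cells and 6 in transitional cells, so the same limit holds over club cells. Perp, a p63 target, was at 834 CPM in basal cells, 173 CPM in transitional and 43.3 CPM in club cells, and Dsp was at 265 CPM in basal cells, 171 CPM in transitional and 40.7 CPM in club cells.

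Among Notch genes, the ligands Jag2 and Dll1 were both high in basal cells. Jag2 was at 111 CPM in basal cells, 4.76 CPM in transitional and 0.206 CPM in club cells, log2 ratios of 3.80 and 3.67. Dll1 was at 92.1 CPM in basal cells, 4.76 CPM in transitional and 0.773 CPM in club cells, log2 ratios of 3.54 and 3.26. Jag2 was seen in 65 and Dll1 in 50 of 93 basal cells. The receptor Notch1 was higher than in transitional cells (log2 ratio 1.86) and within 2-fold of club cells (0.71, but 2-fold higher by total UMIs), and the Notch target Hes1 was at 264 CPM in basal cells, 145 CPM in transitional and 197 CPM in club cells. Relative to the median gene, Hes1 was at least 2-fold higher than in transitional cells (1.06, but 0.84 by total UMIs) and not than in club cells (-0.39).

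Of 14 growth factor ligands and receptors, 9 reached 50 CPM; 4 were at least 2-fold higher in basal than in club cells and 5 higher, with 1 lower, than in transitional cells (by total UMIs 6 higher, and 4 higher with 1 lower). Nrg1, a ligand of ErbB receptors, was at 220 CPM in basal cells, 72.7 CPM in transitional and 21.7 CPM in club cells, and Fgfr3, a fibroblast growth factor receptor, at 111 CPM in basal cells, 20.4 CPM in transitional and 23.3 CPM in club cells. Areg, an EGF receptor ligand, ran the other way against transitional cells, at 138 CPM in basal cells and 822 CPM in transitional cells. In club cells Areg was at 77.7 CPM, level with basal cells relative to the median gene (-0.02). Of the 16 TGF-beta, BMP and YAP genes, 11 were compared with transitional cells, of which 6 were higher and 2 lower. The BMP targets Id1, Id2 and Id3 were among the 6, with log2 ratios of 1.59, 2.24 and 1.59, and Itgb6 and Tgfb2 were the lower ones (-2.11 and -1.51). Over club cells 5 of 9 were higher (8 by total UMIs), among them Tgfbi (3.66), and Id1 and Id2 were within 2-fold (0.02 and 0.35). Klf4, a zinc-finger transcription factor of epithelial differentiation, was at 696 CPM in basal cells (653 to 741) and was seen in 87 of 93, against 84.2 CPM in transitional and 104 CPM in club cells.

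**Figure D3:**
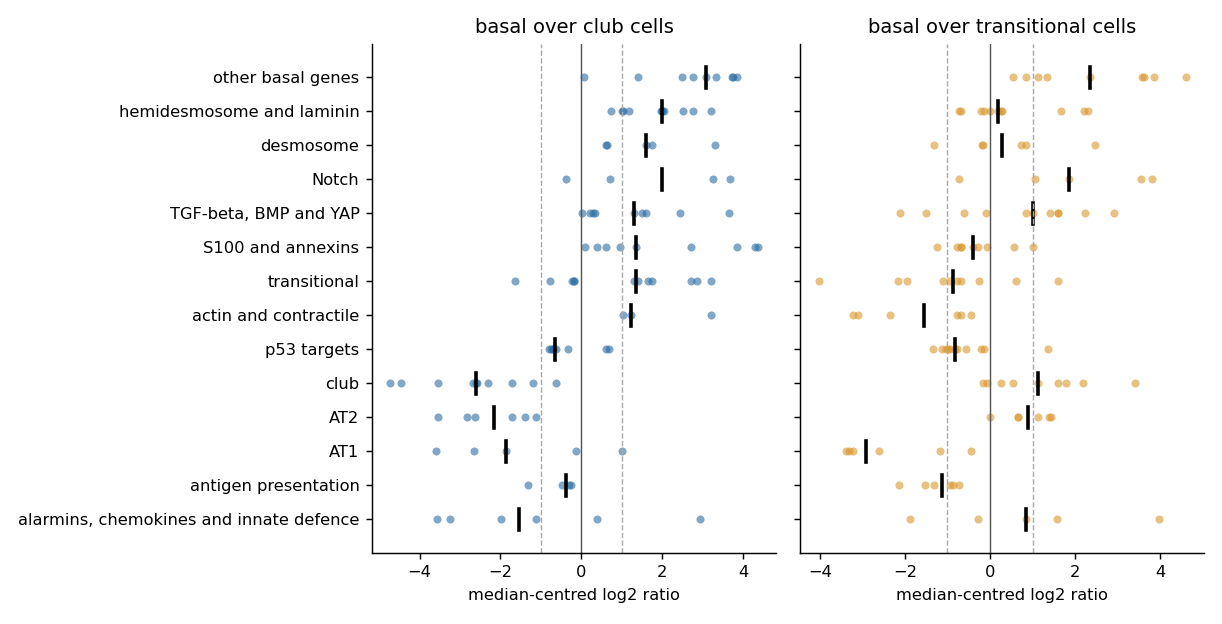
Log2 ratio of basal over club cells (left) and of basal over transitional cells (right), relative to the median gene, for the genes of 14 lists that reached 50 CPM and were not used to choose the classes; points are genes, black bars list medians and dashed lines 2-fold. The medians of the other basal genes are 3.09 and 2.36, those of the hemidesmosome and laminin genes 1.99 and 0.20, and the AT1 genes lie furthest to the left over transitional cells, at -2.92.

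Against club cells, secretory genes were low in basal cells. Club cells had been chosen by 2 club genes, so the club list is a description: of 10 others on it 9 were at least 2-fold lower in basal cells (7 by total UMIs). Cckar, the cholecystokinin A receptor, was at 10.6 CPM in basal cells against 192 CPM in club cells, and Hp, haptoglobin, at 1564 CPM against 10491 CPM. Among the genes lowest relative to club cells were the secreted Retnla (344 CPM against 12675 CPM, with 76.3% of the basal UMIs in 1 cell), Chil1 (17.7 CPM against 473 CPM), Chia1 (8.50 CPM against 636 CPM) and Lrg1 (20.5 CPM against 449 CPM). The acute-phase gene Saa3 had 0 UMIs in basal cells against 94.9 CPM in club cells, at least 44.7-fold lower. Lcn2 and Cxcl17, which act in airway defence, had log2 ratios of -3.56 and -1.98. The 8 p53 targets compared were all within 2-fold relative to the median gene, and 2 were higher by total UMIs.

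In contrast, S100 and annexin genes were high. Of 9 compared with club cells 5 were at least 2-fold higher (8 by total UMIs), among them S100a6, at 5612 CPM against 218 CPM, S100a10, at 619 CPM against 12.3 CPM, and Anxa8, at 275 CPM against 3.09 CPM. S100a6 was seen in all 93 basal cells, at a median of 49 UMIs, and in 283 of 755 club cells. Over transitional cells the same list had a median log2 ratio of -0.39, and S100a6 was at 8605 CPM there, so these genes were shared by basal and transitional cells.

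Of the simple-epithelial keratins, Krt7 and Krt19 took a middle place. Krt7 was at 1474 CPM in basal cells, 3330 CPM in transitional and 264 CPM in club cells, and Krt19 was at 1983 CPM in basal cells, 2748 CPM in transitional and 454 CPM in club cells. Sfn (14-3-3 sigma) was at 1499 CPM in basal cells, 1153 CPM in transitional and 113 CPM in club cells. Krt8 and Cldn4, which chose the transitional cells, were at 1044 CPM and 342 CPM in basal cells, against 670 CPM and 221 CPM in club cells, differences of less than 2-fold whose sign relative to the median gene (-0.17 and -0.19) turned positive by total UMIs. Krt18 was also within 2-fold of club cells relative to the median gene (-0.24) and lower than in transitional cells (-1.11). Of 12 transitional genes, 7 were at least 2-fold higher in basal than in club cells and 1, Nupr1, lower (0 lower by total UMIs).

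Against transitional cells, AT1 genes and the genes Clu and Cldn18 were low in basal cells. Clu, a secreted chaperone, was at 319 CPM in basal cells against 6164 CPM in transitional cells, and Cldn18, the alveolar tight-junction claudin, at 34.7 CPM against 1230 CPM, with UMIs in 6 of 93 basal and 51 of 68 transitional cells. Of 6 AT1 genes compared 5 were at least 2-fold lower, with a median log2 ratio of -2.92, and Ager was at 81.5 CPM in basal cells against 1000 CPM in transitional cells (949 to 1052). Of 6 contractile genes 3 were lower, Tagln, Cald1 and Myl9. Tagln had 2 UMIs in basal cells, and its transitional UMIs came from 5 of 68 cells. Cald1 was at 22.7 CPM in basal cells against 272 CPM in transitional cells, where 35 of 68 cells had it. Transitional cells had been chosen with a limit on the AT2 gene Sftpc and basal cells had not, so the AT2 list is a description. Its genes ran the other way: of 6 compared 3 were at least 2-fold higher (2 by total UMIs) and 0 lower. The median log2 ratio was 0.91. These were Sftpb (1.14), Cxcl15 (1.39) and Lyz2 (1.44, with 40.2% of its basal UMIs in 1 cell), and the background of this list in leukocytes and endothelial cells is given above.

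The p53 targets showed a smaller shift: of 11 compared with transitional cells 3 were at least 2-fold lower and 1, Btg2, higher, with a median of -0.83 (7 lower by total UMIs). Cdkn1a, which encodes the cell cycle inhibitor p21, was at 363 CPM in basal cells against 945 CPM in transitional cells. Of 6 antigen presentation genes 3 were lower (5 by total UMIs), among them Cd74, the class II invariant chain, at 174 CPM against 917 CPM, with 106 of its 245 basal UMIs in 1 cell. The glutathione transferases Gstm1 and Gstm2 were higher than in transitional cells, with log2 ratios of 3.22 and 2.33. Gstm1 was at 1614 CPM in basal cells and 930 CPM in club cells, so relative to the median gene it was level with club cells (-0.02).

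The basal cells were not uniform. The 58 cells with Krt14 and the 35 without had similar median depths, 12314 and 11638 UMIs, and 3196 genes were compared between them. Relative to the median gene 1.75% were at least 2-fold higher and 1.69% lower in cells with Krt14 (2.69% and 1.22% by total UMIs), so far fewer genes parted these cells than parted basal cells from the other classes. Krt17 was at 822 CPM in cells with Krt14, in 32 of 58, against 226 CPM in those without, in 9 of 35. Of 12 hemidesmosome and laminin genes 2 were at least 2-fold higher in cells with Krt14, Col17a1 (log2 ratio 1.45) and Lama3 (1.18), and 0 lower, with a list median of -0.04. Of 10 TGF-beta, BMP and YAP genes 1 was higher, the matricellular YAP target Ccn2 (2.48), and 0 lower, with a median of 0.03. Ccn2 was seen in 32 of 58 cells with Krt14 and in 6 of 35 without. Sox4 (1.93) was the 1 higher gene of 9 lung transcription factors, and the calcium-binding S100a4 (2.95, in 15 of 58 against 1 of 35 cells) was 1 of 2 higher among 10 S100 and annexin genes. Aqp3 was alike, at 565 CPM with Krt14 and 727 CPM without.

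Some of the largest differences rested on single cells. Klk10 was seen in 5 cells with Krt14, 1 of which held 46.7% of its UMIs, and all 88 UMIs of the chemokine Ccl2 were in 1 cell. Sox2, the transcription factor of the airway lineage, was lower in cells with Krt14 (-1.27), at 23 UMIs in 17 of 58 cells against 31 UMIs in 15 of 35 cells. Scgb1a1 was at 13714 CPM with Krt14 and 42706 CPM without, but its median per cell was 31 UMIs with Krt14 and 56 UMIs without, so the sums were set by a few cells.

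**Figure D4:**
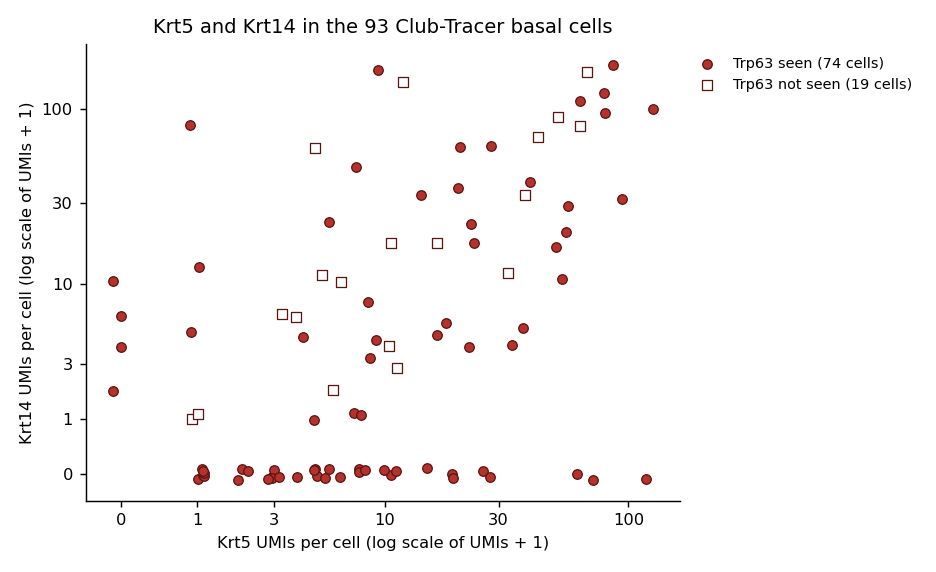
Krt14 UMIs against Krt5 UMIs per cell (log scales of UMIs + 1, points moved slightly apart) in the 93 Club-Tracer basal cells; filled circles are the 74 cells with a Trp63 UMI and open squares the 19 without. A row of 35 cells at 0 Krt14 runs from 1 to over 100 Krt5 UMIs, and cells above 30 UMIs of both genes occur with and without Trp63.

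Secretory transcripts were uneven in the same way. Scgb1a1 was seen in all 93 basal cells, with 7 to 16772 UMIs and a median of 35, but also in all 17 leukocytes and all 4 endothelial cells. Its median was 36.0 per 10000 UMIs in basal cells (median depth 12000 UMIs). Leukocytes had 50.3 (3953 UMIs) and endothelial cells 176.5 (2089.5 UMIs), so on that scale the middle basal cell was not above background. In UMIs per cell the order was the other way, with medians of 35 in basal cells, 17 in leukocytes and 26.5 in endothelial cells. The reading thus depends on the scale. Of the basal Scgb1a1 UMIs, 1 cell held 49.5%. Scgb3a1, of upper airway secretory cells, had 6104 of its 7337 UMIs in that same cell, and Sftpc, the AT2 surfactant gene, had 1651 of its 1954 UMIs in another. Cyp2f2, the club cell cytochrome, was spread more evenly, with 0 to 444 UMIs, a median of 23 and 2885 CPM. It was at 447 CPM in transitional cells and 7602 CPM in club cells. In the classes that should lack it, Cyp2f2 was at 94.7 CPM in leukocytes and 931 CPM in the 4 endothelial cells (7 UMIs). In all, 10 of 93 basal cells had more than 100 UMIs of Scgb3a2, Scgb3a1 or Sftpc. Whether these were mixed droplets was not tested beyond the doublet score, which marked 2 of the 93.

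Cells with Cldn4, chosen as a split after its values had been seen, had higher Ly6d, Krt7 and Krt19. The 41 cells with a Cldn4 UMI had 2378 CPM of Ly6d, 1909 CPM of Krt7 and 2557 CPM of Krt19, against 1291 CPM of Ly6d, 947 CPM of Krt7 and 1286 CPM of Krt19 in the 52 without. Trp63 ran the other way, at 102 CPM with Cldn4 and 194 CPM without, as did Krt5, at 1144 CPM with and 1701 CPM without. Median depth also differed, with 14055 UMIs in cells with Cldn4 and 11142 UMIs in those without, and its part was not tested. Dividing cells were few: Mki67 had UMIs in 7 of 93 basal cells, and 23 of its 33 UMIs were in 1 cell that also held 26 of the 50 Top2a UMIs. After each cell was thinned to 1500 UMIs, 3 of 93 basal cells had Mki67 (3.23%, exact Clopper-Pearson 95% interval 0.670 to 9.14%), against 2 of 67 transitional cells (2.99%) and 6 of 754 club cells (0.796%).

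The reporter of the sort was present in the basal cells. tdT, the tdTomato transcript, had 0 to 55 UMIs per Club-Tracer basal cell with a median of 7, and was seen in 82 of 93 cells (88.2%). Its level was 574 CPM in basal cells (535 to 615), against 1234 CPM in transitional cells, 338 CPM in club cells and 18.9 CPM in leukocytes, where it rested on 2 UMIs in 17 cells. Thinned to 1500 UMIs, 50.5% of basal cells (40.0 to 61.1%), 62.7% of transitional cells, 31.8% of club cells and 6.25% of leukocytes (1 of 16) had a tdT UMI. Both measures are by total UMIs, where the median gene had a log2 ratio of 0.81 over club and -0.22 over transitional cells. The part of this scale in the order of basal, club and transitional cells was not tested. The share in basal cells was above that of leukocytes, while the 4 endothelial cells gave no usable limit, with 3 tdT UMIs in 1 cell. ZsGFP, the ZsGreen transcript, had 1 UMI in each of 12 basal cells and 0 in the other 81. Its level was 8.50 CPM in basal cells, against 18.9 CPM in leukocytes (2.29 to 68.4), where it rested on 2 UMIs in 1 of 17 cells. The 4 endothelial cells had 0 ZsGFP UMIs. ZsGFP was thus not shown to be above background, but that background is loosely set.

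**Figure D5:**
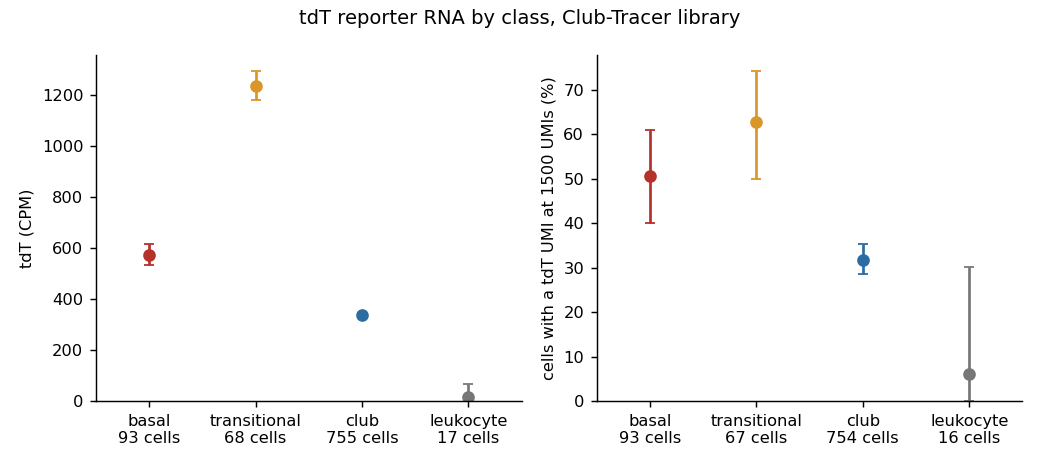
tdT level in CPM with exact Poisson 95% intervals (left) and share of cells with a tdT UMI after thinning each cell to 1500 UMIs, with exact Clopper-Pearson 95% intervals (right), for 4 classes of the Club-Tracer library. Both scales are by total UMIs. Basal cells lie between transitional and club cells on both, at 574 CPM and 50.5%. Leukocytes are lowest, at 18.9 CPM and 6.25%.

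Basal cells made up 2.91% of filtered Club-Tracer barcodes (2.35 to 3.55%), 0.285% of BASC-Tracer barcodes (0.0778 to 0.729%) and 0.0171% of AT2-Tracer barcodes (0.000432 to 0.0951%), each exact Clopper-Pearson. The libraries were sorted on different colours and numbers of mice are not given, so these are shares of sorted cells. The 4 BASC-Tracer basal cells had 12, 59, 8 and 78 UMIs of Krt5, 98, 63, 0 and 103 of Krt14, and 6, 9, 14 and 17 of Trp63. Of the markers that the rule did not use, Aqp3 had 30, 8, 2 and 7 UMIs, Ly6d 0, 52, 0 and 59, and Krt17 0, 14, 0 and 15. Aqp3 was thus seen in all 4, and Ly6d and Krt17 in 2. The third cell, with 2 UMIs of Aqp3 and 50 of Cyp2f2, was at the Aqp3 median of the Club-Tracer barcodes just outside the rule. Its depth was lower, at 4574 UMIs against a median of 10348 UMIs in those barcodes, so the Aqp3 counts are not like for like. The BASC-Tracer gate asked for both colours of the reporter proteins, whereas only reporter RNA was measured here. In RNA, the 4 BASC-Tracer basal cells had tdT and almost no ZsGFP. In these cells tdT had 16, 9, 4 and 19 UMIs, and ZsGFP 0, 0, 0 and 1. ZsGFP was at 15.9 CPM in them against 8064 CPM in the rest of that library, and leukocytes of that library were at 52.5 CPM. The 1 AT2-Tracer basal cell had 12 UMIs of Krt5, 5 of Krt14, 1 of Trp63 and 13 of Aqp3, with 5 UMIs of tdT and 2 of ZsGFP. In that library, sorted for ZsGreen, 0.717% of the other barcodes had a tdT UMI.

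The genes most like Krt5 were sought over 3030 Club-Tracer cells thinned to 1500 UMIs, by Spearman correlation as a description. After Krt14 (0.47), which the rule shared, came Aqp3 (0.39), Krt17 (0.33), Ly6d (0.31), Fxyd3 (0.30), Perp (0.28), Apoe (0.27), Dst (0.25), Cdh3 (0.25) and S100a6 (0.21). These cells share 1 library, and Krt5 was seen in 84 of them at this depth, so the values are set by few cells. Krt5 itself lies at chr15:101707070-101712898 and Aqp3 at chr4:41092722-41098183, both on the reverse strand of GRCm38, and Krt14 and Krt17 lie in the type I keratin cluster of chromosome 11, at chr11:100203162-100207548 and chr11:100256217-100261029.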

How the data were processed

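Single-cell 5′ gene expression libraries from 3 sorted lung fractions were used. The deposited matrices hold raw UMI counts per gene and barcode, per the file headers. Cell Ranger 6.1.1 and genome build mm10 are named in the submitters' processing notes, while the annotation release used by the authors was not given in the sources used here. There were 32287 features per matrix. Coordinates are from GENCODE M21 (GRCm38) and promoters from RefSeq (GRCm38.p6), where 3 of 6 marker genes were found; the Krt14 window lay inside the gene as annotated and is not shown.

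Counts were summed per class and given as CPM with exact Poisson 95% intervals, ratios with exact conditional intervals, and log2 ratios with 5 CPM added, for genes at 50 CPM or more in either class. A difference of 2-fold marks size and is no test. Shares of cells were also taken after thinning to 1500 UMIs. Doublets were not removed; leaving out barcodes marked by Scrublet (scanpy 1.11.5) was an alternative, and since its automatic threshold marked 1 Club-Tracer barcode and 0 from BASC-Tracer, the highest scores were taken there, at 0.8% per 1000 barcodes. Genes were named from the marker and gene lists, from the 10 highest and 10 lowest ratios per comparison (at least 30 UMIs in the higher class), and otherwise after their values were seen. The basal cell rule, the lists and the class limits were chosen with earlier results of these data known. Some genes of the lists are counted but not reported here by name. The scripts were tested on simulated data. Python 3.11.15, numpy 2.4.6, scipy 1.17.1 and pandas 2.3.3 were used.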

Additional observations from a re-analysis of the deposited data

How the results depend on the processing

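No paired analysis was possible because each lineage had 1 library and the labels carry no replicate numbers. Basal cells were 2.91% of Club-Tracer barcodes by the rule used, 1.10% with all 3 genes required, 2.07% with 2 UMIs required of each of 2 genes and 1.29% after thinning to 1500 UMIs. By total UMIs, genes at least 2-fold higher and lower than in club cells numbered 1948 and 205 at a minimum of 20 CPM, 591 and 76 at 100 CPM, 249 and 279 scaled by the median ratio, and 384 and 310 with the 20 genes highest in endothelial cells left out of the totals, against 1117 and 121. Against transitional cells they numbered 405 and 583 at 20 CPM and 139 and 194 at 100 CPM, against 239 and 344, and 691 were lower with the gate limits doubled (14 transitional cells).

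Among 3840 values of 320 gene results under other settings, 2938 were counted as the same, 891 as moved and 11 as reversed. The cause was not tested. Same means inside the counting interval of the main value, so a gene with few UMIs could shift and still count as the same. A reversal is a change of sign in a gene at least 2-fold higher or lower in the main setting. Changes of sign in genes within 2-fold were not counted as reversals. With all 3 marker genes required, log2 ratios over club cells became -0.51 for Sftpc and -1.03 for Msln, and over transitional cells -0.00537 for Lyz2 and -0.87 for Krt15. Sftpc also became -0.58 without Scrublet-marked barcodes and -0.43 without the 10 cells rich in Scgb3a2, Scgb3a1 or Sftpc, a setting added after the data were seen. With doubled gate limits Bpifb1 became 0.86 over club cells, and Sprr1a 3.29, Chia1 1.00, H2-Ab1 0.99 and H2-Aa 1.64 over transitional cells.

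Shares of basal cells with a UMI depend on depth. At 1500 UMIs, 3000 UMIs and unthinned, tdT was seen in 50.5%, 65.2% and 88.2%, Ly6d in 69.9%, 80.4% and 90.3%, and Scgb3a2 in 33.3%, 52.2% and 79.6%. At 1500 UMIs and unthinned, ZsGFP was seen in 1.08% and 12.9%, Krt17 in 29.0% and 44.1%, Krt8 in 60.2% and 93.5%, and Cldn4 in 23.7% and 44.1%. Free RNA taken from leukocytes in place of endothelial cells gave 4111 against 19029 CPM for the club list and 9690 against 24085 CPM for the AT2 list.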
